A study of Mus musculus with 22 samples.

Results

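Sp100, Sp110 and Sp140 are the mouse speckled protein genes, and 3 of the 52636 genes of the deposited table carry these symbols. They were chosen on values of these data, because Sp140 was higher in Dicer SOM/SOM than in wild-type oocytes of the single-end run and because their locus on chromosome 1 is rich in copies. The values of that contrast are therefore given for all 3 genes as a description, with no test. Speckled proteins are nuclear proteins of the PML nuclear bodies and related speckles. They share an N-terminal Sp100 or HSR domain, by which they associate, and most carry a SAND domain, which binds DNA, and a PHD finger and bromodomain, which read histone marks. Their genes are known as interferon-inducible and as expressed mainly in immune cells.

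RNA was sequenced from fully-grown GV oocytes of C57BL/6 mice, which are oocytes arrested with an intact germinal vesicle. Each sample held 25 oocytes. The single-end run (reads of 50 nt) holds wild type (n = 3), Dicer dMT/WT (n = 1), Dicer dMT/dMT (n = 4) and Dicer SOM/SOM (n = 3), for which the labels give no age. The paired-end run (reads of 75 nt) holds controls, which are heterozygous for both alleles, Dicer SOM/WT and Mili DAH/WT (n = 4, at 10, 17, 36 and 38 weeks), and a piRNA mutant, which combines Dicer SOM/WT and Mili DAH/DAH (n = 1, 16 weeks). Its RNAi mutants combine Dicer SOM/SOM and Mili DAH/WT (n = 2, 13 and 17 weeks), and its double mutants Dicer SOM/SOM and Mili DAH/DAH (n = 4, at 11, 11, 35 and 40 weeks). The SOM allele encodes an HA-tagged full-length Dicer and lacks the intron from which the shorter oocyte isoform of Dicer starts, in every cell of the animal, and the line descends from 1 embryonic stem cell clone. The dMT allele lacks the MT retrotransposon promoter of that isoform, and the DAH allele carries a mutation in the catalytic site of MILI. Every paired-end sample, controls included, carries at least 1 SOM and 1 DAH allele, so the run has no wild type. Total counts were 6468380 to 90713013 per single-end sample (median 60908103), with the lowest in Dicer SOM/SOM replicate 3, and 22928936 to 43540806 per paired-end sample (median 34830593). Dicer1 counts followed the labels, with a mean of 640 CPM (counts scaled to the library size, after TMM normalization) in controls and 57.7 CPM in both RNAi and double mutants. The labels do not say whether oocytes of several females were combined in a sample, so the p-values measure only the spread between these samples.

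The 3 genes lie next to each other on chromosome 1 of GRCm38. Sp110 (ENSMUSG00000070034.13) is on the minus strand at chr1:85576899-85598817, with 1921 exon bases. Sp140 (ENSMUSG00000070031.11) starts on the plus strand just beyond it, at chr1:85600703-85645037, with 2417 exon bases. Sp100 (ENSMUSG00000026222.16) follows on the plus strand at chr1:85649988-85709998, with 3801 exon bases. All 3 genes are protein-coding.

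The sequence before the start of Sp140 is shown because 2 protein-coding copies of the locus carry nearly the same one. The RefSeq table of promoters (GRCm38.p6) gave these 250 bases upstream of Sp140, at chr1:85600453-85600702 on the plus strand. They end just before the gene start of GENCODE M15, which the counts use. In the later release M21 Sp140 starts at 85600378, so there the window lies within the span of the gene. A match to it lies immediately before A530032D15Rik, at chr1:85109854-85110074 on the minus strand, where 220 of 221 bases are identical (99.5%). The match before C130026I21Rik, at chr1:85270567-85270771 on the minus strand, has 204 of 205 identical bases (99.5%). The capital letter marks the base that differs from Sp140.
Sp140: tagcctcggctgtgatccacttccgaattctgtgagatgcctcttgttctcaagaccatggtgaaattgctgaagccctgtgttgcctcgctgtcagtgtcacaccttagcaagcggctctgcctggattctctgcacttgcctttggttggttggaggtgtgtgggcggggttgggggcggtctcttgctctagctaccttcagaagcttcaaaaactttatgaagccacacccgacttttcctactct
A530032D15Rik: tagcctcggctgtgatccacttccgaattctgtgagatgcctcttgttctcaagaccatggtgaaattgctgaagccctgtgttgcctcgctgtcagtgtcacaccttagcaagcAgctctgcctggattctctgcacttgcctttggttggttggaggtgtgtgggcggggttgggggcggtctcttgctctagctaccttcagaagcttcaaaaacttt
C130026I21Rik: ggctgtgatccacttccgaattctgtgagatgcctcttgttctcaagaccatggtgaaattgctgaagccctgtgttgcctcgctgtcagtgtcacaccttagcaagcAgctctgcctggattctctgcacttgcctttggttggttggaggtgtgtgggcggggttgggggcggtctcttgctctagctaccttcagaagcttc
The upstream windows of Sp110 and Sp100 aligned to that of Sp140 over 20 and 21 bases only. The letters GAAA, any 2 bases and GAAA again, a core of the interferon-stimulated response element, were searched on both strands. They occur 0 times in the 250 bases before Sp100, Sp110 or Sp140, while 978 of 32851 RefSeq promoters (2.98%) hold them.

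A second set of sequences is shown because Sp140 is complementary to the transcript of an unrelated gene on another chromosome. The last exon of Arhgef12, a gene on chromosome 9, contains a run complementary to Sp140, and whether the RNAs pair was not tested. Positions 8159 to 9700 of a transcript of Arhgef12 with 10752 bases, beyond its coding part, are complementary to positions 957 to 2417 of the main transcript of Sp140. This covers 1461 bases or 60.4% of the Sp140 transcript, at 98.63% identity. Gm5831 (chr9:42964872-42966080, plus strand), a processed pseudogene of Sp140, lies wholly inside this exon on the other strand. The following 30 bases come from the longest exact match within the coding sequence of Sp140, which is 159 bases long. They lie at chr1:85641801-85641830 (plus strand) in Sp140 and at chr9:42965606-42965635 in Arhgef12 (minus strand) and Gm5831 (plus strand).
Sp140: cagagccttccatgaggactgtcatatccc
Arhgef12: gggatatgacagtcctcatggaaggctctg
Gm5831: cagagccttccatgaggactgtcatatccc
The run of Sp140 equals that of Gm5831 letter by letter and is the reverse complement of that of Arhgef12.

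These copies bear on what the counts of the members mean. The authors counted reads without regard to strand and divided a read that maps to several places, or that falls on several genes, among them. For each member, every stretch of 1 read length along its main transcript was compared with the transcripts of all other genes. At 75 bases, 48.91% of the stretches of Sp140 and 48.24% of those of Sp110 occur exactly in another gene, against 7.25% of those of Sp100. At 50 bases the shares were 63.09%, 60.36% and 10.61%. These shares are for single reads, and read pairs were not considered. Thus, among annotated transcripts, the main transcript of Sp100 holds mostly stretches of its own, and those of Sp110 and Sp140 hold a mixture. That of Sp100 has 2708 bases, fewer than the 3801 exon bases counted, and copies outside annotated transcripts were not sought. Gm7582 shares most stretches of Sp100 (6.64% at 75 bases), but is below the limit set for a copy and is not in the sums below. The partner that shares most stretches of Sp140 is Arhgef12 (18.1% at 75 bases), through its opposite strand. Both ends of Sp140 are covered in this way, since bases 1 to 959 align to C130026I21Rik and the bases from 957 on to Arhgef12. The partner that shares most stretches of Sp110 is Gm15753 (19.33%), an unprocessed pseudogene on chromosome 5 (chr5:137720354-137721740, minus strand) that is 96.5% identical to 54.0% of the Sp110 transcript. G530012D18Rik, on the strand opposite to Sp110, overlaps 392 of its exon bases.

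**Figure D1:**
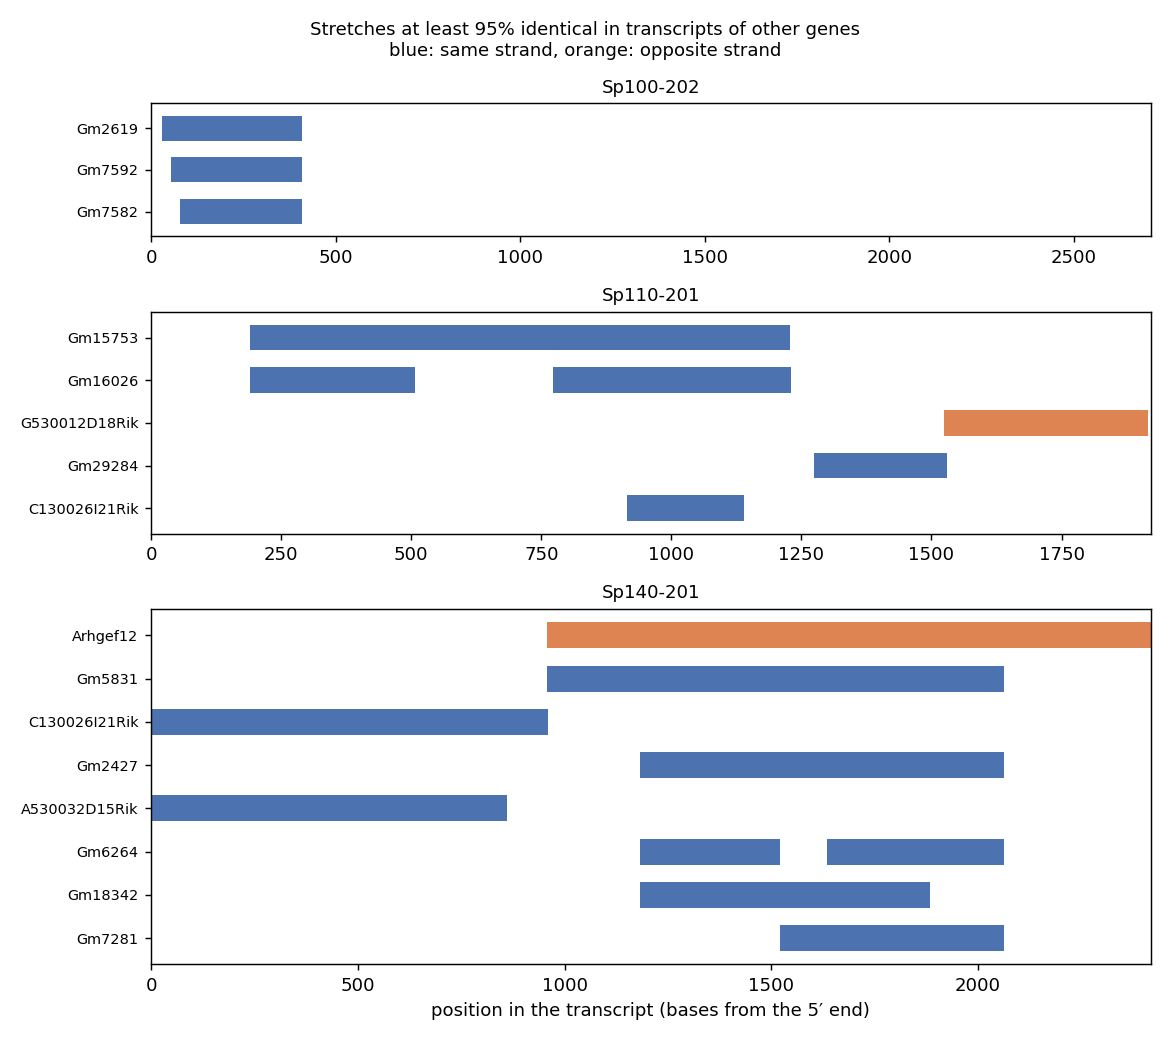
Position along the main transcript of Sp110, Sp140 and Sp100 in bases (x axis), with a bar for each stretch at least 95% identical to another gene (y axis), blue on the same strand and orange on the opposite one. Arhgef12 covers 60.4% of Sp140 on the opposite strand and Gm15753 covers 54.0% of Sp110, while the bars of Sp100 end at base 407.

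Sp110 was the most abundant of the 3 genes, Sp140 was intermediate and Sp100 was the lowest. On a scale of level per length, controls of the paired-end run had 105.6 ± 5.46 CPM per kb of Sp110 (SD, n = 4), 7.24 ± 1.11 CPM per kb of Sp140 and 0.563 ± 0.188 CPM per kb of Sp100. Their ranges do not overlap, and the order was the same in every group of both runs. Among the 20989 genes tested in that run, whose median level was 2.10 CPM per kb, the 3 genes stood at percentiles 97.6, 69.1 and 30.1. In double mutants Sp110 reached percentile 99.6 and Sp140 percentile 94.5, and Sp100 was at 23.1.

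Sp140, whose protein is a chromatin reader of immune cells, was higher in oocytes of RNAi and double mutants than in controls. Controls had 15.1, 21.3, 17.1 and 16.6 CPM. The RNAi mutants had 141 and 127 CPM, and the double mutants 138, 142, 135 and 135 CPM. All 6 Dicer SOM/SOM samples of this run lay above all Dicer SOM/WT samples, several-fold apart from the highest control, and the 4 double mutants lay close together. The piRNA mutant, which keeps 1 wild-type Dicer allele, had 12.8 CPM, below every control. The rise was 7.70-fold in RNAi mutants (log2 fold change 2.95 ± 0.15, SE) and 7.87-fold in double mutants (2.98 ± 0.13). Both passed edgeR's quasi-likelihood test over all genes, with adjusted p = 2.37e-08 and 4.88e-09. In such bulk samples, more RNA per cell and more cells that carry the RNA cannot be told apart.

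Sp110, a relative of Sp140 known as a nuclear body component of leukocytes, rose in the same samples. Its level was 205, 199, 216 and 192 CPM in controls. It was 705 and 693 CPM in RNAi mutants and 759, 731, 602 and 629 CPM in double mutants. The lowest mutant had far more than the highest control, and the older double mutants (759 and 731 CPM) were above the younger ones. The piRNA mutant had 176 CPM, again below the controls. Sp110 rose 3.47-fold in RNAi mutants (log2 fold change 1.79 ± 0.13, adjusted p = 7.17e-07) and 3.36-fold in double mutants (1.75 ± 0.11, adjusted p = 1.39e-07, edgeR).

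Sp100, the founding member of the family and a constituent of PML bodies, stayed low. It had 1.62, 2.68, 1.44 and 2.83 CPM in controls. RNAi mutants had 1.23 and 1.56 CPM, and double mutants 2.29, 1.64, 1.17 and 0.958 CPM. The groups overlapped, and the piRNA mutant (2.36 CPM) was within the range of controls. Against controls, RNAi mutants had a log2 fold change of -0.60 ± 0.42 (95% interval -1.51 to 0.30, adjusted p = 0.434, edgeR), and double mutants of -0.49 ± 0.33 (-1.20 to 0.22, adjusted p = 0.338). The intervals exclude a rise of the size seen for Sp110 or Sp140. They do not exclude a fall.

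Thus, of the 3 genes, 2 were called higher and 0 lower in each comparison with the controls. Among all genes tested, the calls of RNAi mutants made up 10.7%, with 7.07% higher and 3.64% lower. Those of double mutants made up 21.2%, with 12.3% higher and 8.84% lower. When both Mili genotypes were pooled, Dicer SOM/SOM (n = 6) exceeded Dicer SOM/WT (n = 5) by 3.06 log2 CPM for Sp140 and by 1.80 log2 CPM for Sp110. The exact two-sided permutation test gave p = 0.00216 for each, the smallest value this design allows. For Sp100 the difference was -0.55 log2 CPM (exact permutation p = 0.0628). Each of the 11 samples was also left out in turn. The Sp100 difference then ranged from -0.69 to -0.45 log2 CPM, with exact permutation p from 0.0286 to 0.138. In 9 of these 11 runs p stayed above the threshold used for calls, as with all samples. It fell below it without double mutant replicate 1o (-0.69 log2 CPM, exact permutation p = 0.0397). The same held without control replicate 2 (-0.69 log2 CPM, exact permutation p = 0.0286). A fall of Sp100 thus rests on which sample is omitted.

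**Figure D2:**
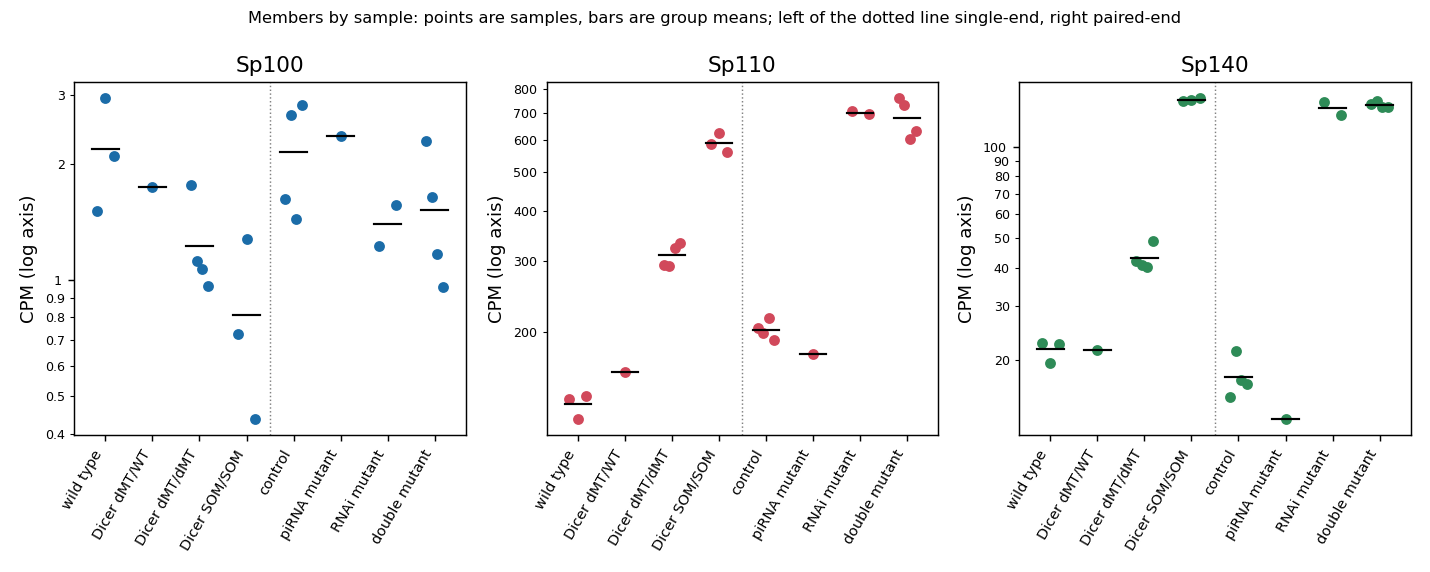
CPM of Sp100, Sp110 and Sp140 (log axis, y axis) by group (x axis), with points for samples, bars for group means and the single-end run left of the dotted line. For Sp110 and Sp140 all samples with Dicer SOM/SOM lie above the other samples of their run, and for Sp100 the groups overlap in the paired-end run.

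The loss of MILI activity on top of the loss of the oocyte Dicer isoform was addressed by double mutants against RNAi mutants. The log2 difference was -0.05 for Sp110 (95% interval -0.33 to 0.24), 0.03 for Sp140 (-0.29 to 0.36) and 0.11 for Sp100 (-0.78 to 1.004). None of the 3 was called (adjusted p = 0.9997 each, edgeR), while 66 of all genes (0.314%) were. At an unadjusted p under 0.05, and in DESeq2, 0 of the 3 passed either. That unadjusted limit was met by 1004 of 20989 genes tested in edgeR. The 95% intervals of Sp110 and Sp140 limit any further change to less than 0.4 log2 units, and that of Sp100 is wide. RNAi mutants are only 2 samples here. The sign of the difference changed with the setting for Sp100 and Sp140. For Sp110 it changed only when samples were left out in turn. The double mutant effect was also compared between animals over 30 weeks and younger ones. The difference of the effects, older minus younger, was 0.28 ± 0.19 for Sp110, -0.07 ± 0.26 for Sp140 and 0.88 ± 0.61 for Sp100 (log2, SE). None was called (adjusted p = 0.892, 0.992 and 0.891 in edgeR's test of the interaction), against 1 gene of all tested (0.00476%), and each age class has 2 samples per group.

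The single-end run adds another allele against the same isoform, in Dicer dMT/dMT. As a model it is incomplete, since a further LTR downstream can still drive a truncated Dicer there. Its wild-type samples are those of the contrast by which the genes were chosen, so the members are described there with no test. Sp140 was at 22.7, 19.5 and 22.5 CPM in wild type and at 42.1, 40.8, 40.4 and 48.9 CPM in Dicer dMT/dMT. Sp110 was at 137, 122 and 139 CPM in wild type and at 294, 291, 324 and 332 CPM in Dicer dMT/dMT. In both genes the lowest mutant was well above the highest wild-type sample. The sample with 1 dMT allele had 21.5 CPM of Sp140, within the wild-type range, and 159 CPM of Sp110, above it. Sp140 was 1.99-fold higher than in wild type (log2 fold change 0.99 ± 0.10, SE) and Sp110 was 2.34-fold higher (1.22 ± 0.08). Sp100 had 1.51, 2.95 and 2.09 CPM in wild type and 1.76, 1.12, 1.07 and 0.964 CPM in Dicer dMT/dMT. Its groups overlapped in 1 sample, and its log2 fold change was -0.84 ± 0.32. Of all 23151 genes tested in this comparison, edgeR called 15.4% (8.06% higher and 7.3% lower).

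In Dicer SOM/SOM of the single-end run, by which the genes were chosen, Sp140 was at 142, 142 and 144 CPM and Sp110 at 586, 624 and 558 CPM. Against wild type this is a log2 fold change of 2.73 ± 0.11 for Sp140 and of 2.15 ± 0.09 for Sp110. Against Dicer dMT/dMT it is 1.74 ± 0.09 and 0.93 ± 0.08. Sp140 and Sp110 were thus lowest in wild type, intermediate in Dicer dMT/dMT and highest in Dicer SOM/SOM, with no overlap between neighbouring groups. Sp100 was at 0.726, 1.27 and 0.437 CPM, where the last value rests on 3.02 counts in the shallowest library. Its log2 fold change was -1.24 ± 0.37 against wild type and -0.40 ± 0.35 against Dicer dMT/dMT. Dicer1 itself had a mean of 1014 CPM in wild type, 486 CPM in Dicer dMT/dMT and 49.5 CPM in Dicer SOM/SOM.

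**Figure D3:**
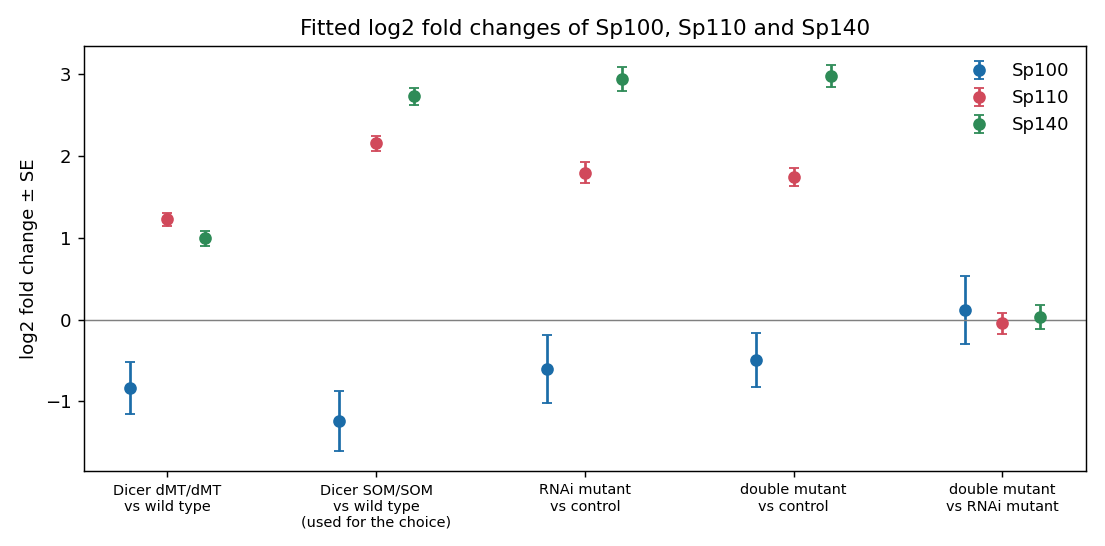
Fitted log2 fold change of Sp100, Sp110 and Sp140 (y axis) in 5 comparisons (x axis), with error bars of 1 SE, where Dicer SOM/SOM against wild type is the contrast that chose the genes. Against controls the RNAi and double mutants stand at 2.95 and 2.98 for Sp140 and at 1.79 and 1.75 for Sp110, and Sp100 is below 0 except in double against RNAi mutants.

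The ratio of Sp140 to Sp110 varied between genotypes and is described with no test, since it was chosen after the values were seen. The count of Sp140 (in CPM) was 7.35% to 10.7% of that of Sp110 in controls and 7.23% in the piRNA mutant. It was 18.3% to 19.95% in RNAi mutants and 18.2% to 22.5% in double mutants. Over the 6 Dicer SOM/SOM and 5 Dicer SOM/WT samples the mean ratio differed by 1.26 log2 units or 2.40-fold, and the ranges do not overlap. In the single-end run the ratio was 16.0% to 16.6% in wild type, 12.4% to 14.7% in Dicer dMT/dMT and 22.8% to 25.9% in Dicer SOM/SOM. In that run the ratio was lowest in Dicer dMT/dMT and highest in Dicer SOM/SOM. Copies that receive part of the reads differ between the 2 genes and between read lengths, and their part in the ratio was not tested.

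The copies themselves were measured next. Of the 17 genes with a transcript at least 95% identical to at least 50% of a member's transcript, 17 passed the filter on low counts in both runs. Gm10552 and G530012D18Rik overlap exons of a member on the opposite strand, Gm10552 by only 4 bases and G530012D18Rik by 392. With them, the copies make 19 genes. Of these, 16 were higher and 0 lower in double mutants, with a median log2 fold change of 1.99 against -0.00 for all genes tested, of which 12.3% were higher and 8.84% lower. In RNAi mutants 14 were higher (median 1.91 against -0.02), where 7.07% of all genes were. In Dicer dMT/dMT the median was 0.67 against 0.01. No calls are given there, since its wild-type samples served in the choice and copies share reads with the members. DESeq2 also called 0 of them lower in RNAi and double mutants. At an unadjusted p under 0.05 in edgeR 1 was lower in double mutants and 0 in RNAi mutants. In either direction, that limit was met by 6902 and 4951 of 20989 genes tested. Because reads are divided among copies, a rise of 1 transcript adds counts to its copies too, and the genes are not independent measurements.

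Of the protein-coding copies, C130026I21Rik, which matches both Sp110 and Sp140, went from 36.5 CPM in controls to 510 CPM in double mutants (log2 fold change 3.81 ± 0.14, adjusted p = 1.09e-09, edgeR). A530032D15Rik, the copy with the longer match to the sequence before Sp140, went from 10.5 to 80.0 CPM (2.93 ± 0.13). These values are larger than or close to that of Sp140 (2.98). A530040E14Rik, an antisense RNA of that region with a match to Sp110, rose from 50.8 to 531 CPM (3.39 ± 0.13), and Gm10552, antisense to Sp140, from 12.7 to 134 CPM (3.40 ± 0.14). Gm15753, the copy of Sp110 on chromosome 5, rose from 21.6 to 89.7 CPM (2.06 ± 0.15), and G530012D18Rik from 40.4 to 98.1 CPM (1.29 ± 0.20). The pseudogenes and RNAs Gm16026, Gm16025, Gm2427, Gm16092, Gm7592, Gm2619, Gm6264, Gm17017, Gm7609 and Gm18342 also rose, by 1.70 to 2.58 on the log2 scale, at a mean of 0.268 to 11.8 CPM in controls. Gm16026 matches Sp110, Gm7592, Gm2619 and Gm7609 match Sp100, and the others match Sp140.

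The 3 copies that were not called lie outside chromosome 1. Arhgef12 had a mean of 284 CPM in controls, 229 CPM in RNAi mutants and 220 CPM in double mutants. Its log2 fold change was -0.30 ± 0.20 (adjusted p = 0.399) and -0.37 ± 0.16 (adjusted p = 0.119, edgeR). Gm5831, inside its last exon, went from 30.8 to 28.4 CPM (-0.12 ± 0.16, adjusted p = 0.652). All 1209 bases of Gm5831 overlap that exon, so with counting without regard to strand it is not a measurement separate from Arhgef12. Gm8613, on chromosome 10, was at 0.185 and 0.230 CPM (0.27 ± 0.59). Arhgef12 thus had more counts than Sp140 in every group, and summing the pair mixes an abundant transcript without a called change with 1 that rose. In Dicer dMT/dMT, Arhgef12 was at 236 CPM against 264 CPM in wild type (-0.17 ± 0.09), given with no test.

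The counts of each member were also summed with those of its copies and overlapping genes, which may share its reads, and tested as 1 row. Sp110 with its 5 partners rose by 2.44 ± 0.11 on the log2 scale in double mutants and by 2.51 ± 0.12 in RNAi mutants, more than Sp110 alone. Sp140 with all its partners rose by 1.52 ± 0.11 and 1.59 ± 0.13, and without Arhgef12 by 2.93 ± 0.10 and 3.002 ± 0.11. The sums of Sp110 and Sp140 passed the test in both comparisons. Both hold partners that were called higher by themselves, so passing does not show how the division of reads shapes the members' values. Among the partners of Sp110, C130026I21Rik (510 CPM in double mutants) and A530040E14Rik (531 CPM) were admitted by matches to short transcripts of Sp110. C130026I21Rik aligns to 11.8% of the main one. In Dicer dMT/dMT the sum of Sp140 with all its partners had a log2 fold change of 0.30 ± 0.08 against wild type, where Sp140 alone had 0.99, and without Arhgef12 it had 1.08 ± 0.09. Sp100 with its 3 pseudogenes had a log2 fold change of 0.88 ± 0.18 in double mutants (adjusted p = 0.00343, edgeR) and of 0.76 ± 0.22 in RNAi mutants (adjusted p = 0.0408), the opposite sign to Sp100 alone. Its pseudogenes Gm7609, Gm2619 and Gm7592 match a short transcript of Sp100 and rose from 0.306, 0.268 and 0.649 CPM to 1.03, 1.03 and 2.61 CPM in double mutants.

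Most neighbouring genes that rose lay on one side of the members. The table holds 42 other genes within 500 kb of the outer ends of the 3 members, and 30 of them passed the filter. In double mutants 20 were higher and 0 lower, with a median log2 fold change of 1.89, where 12.3% of all genes tested were higher. On the side of the copies, up to the end of Sp100, 19 of 21 were higher, while beyond the end of Sp100 1 of 9 was, a share near that of all genes. The difference between the sides was not tested. All 15 genes on the first side that are copies or overlap an exon of a member were higher, and so were 4 of the 6 that are neither, namely Gm10553, Gm16038, Gm16028 and Gm7281. These 4 are not apart from the copies, since each lies within the span of a copy. Gm10553 lies within A530032D15Rik, Gm16038 and Gm16028 within C130026I21Rik, and Gm7281 within Gm16025. Whether they share reads with these copies was not tested. Gm16028, antisense to C130026I21Rik, had the highest log2 fold change of the neighbours, from 0.976 to 29.5 CPM (4.93 ± 0.19). Gm7281 is a further pseudogene that aligns to 22.5% of Sp140, below the limit set for a copy. The 2 genes of that side without a call are Gm2666 (0.03 ± 0.48) and Gm16094 (0.39 ± 0.48), which lies between Sp110 and Sp140.

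Beyond Sp100, Gpr55, a G protein-coupled receptor, was the gene that rose, from 0.892 to 4.92 CPM (2.49 ± 0.42, adjusted p = 0.000722, edgeR). Cab39, which encodes a subunit of the LKB1 complex, was at 60.4 CPM in controls and 57.6 CPM in double mutants (-0.06 ± 0.15). Psmd1, a subunit of the proteasome, was at 164 and 169 CPM (0.04 ± 0.12). Gm21972 (-0.12 ± 0.22), Armc9 (0.15 ± 0.23), Itm2c (0.59 ± 0.27), Gm28884 (2.53 ± 0.97), Gm28100 (1.55 ± 0.66) and Gm18180 (-0.97 ± 0.37) were not called either. In RNAi mutants 17 of 21 genes were higher on the first side and 1 of 9 on the other. In Dicer dMT/dMT the median log2 fold change was 0.73 on the first side and 0.14 on the other. No calls are given for the first side, which holds the copies, since the wild-type samples served in the choice. Of the 9 genes on the other side, which holds 0 copies, 3 were called higher, where 8.06% of all genes were. They are Itm2c, Gm28884 and Gpr55.

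**Figure D4:**
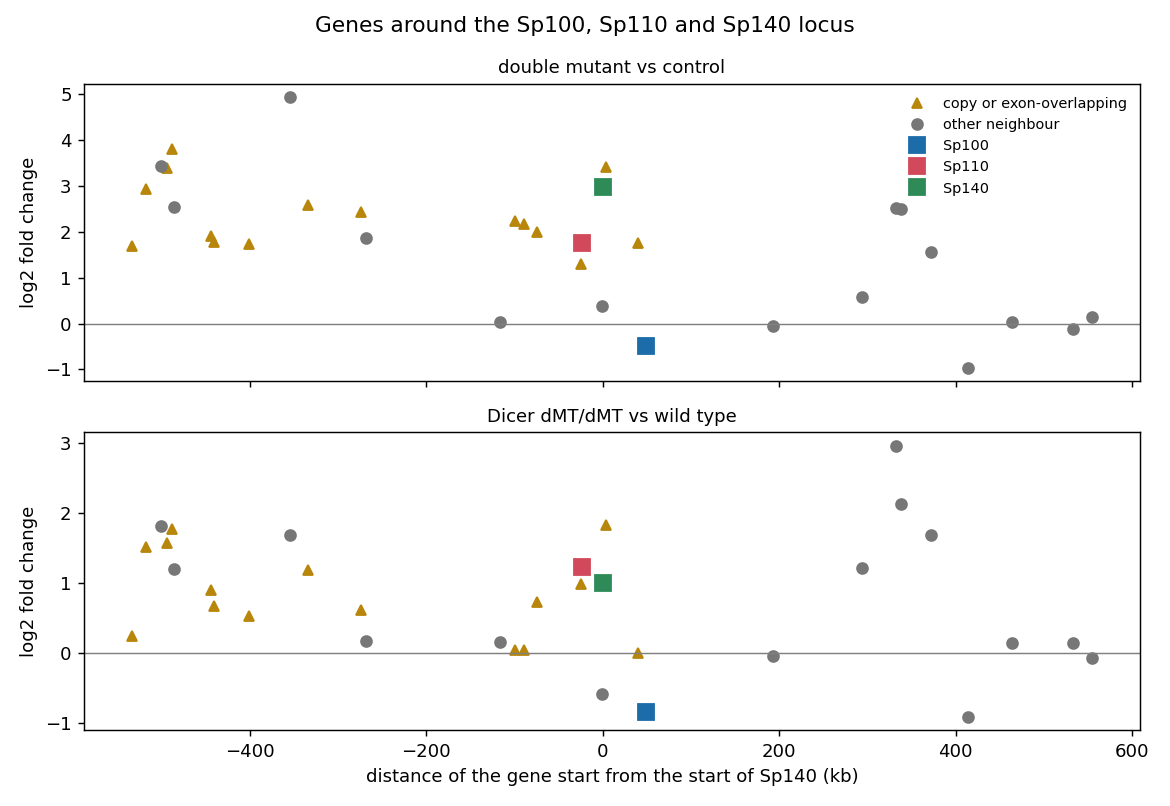
Log2 fold change of the 30 tested neighbours and the 3 members (y axis) against the distance of their start from that of Sp140 in kb (x axis), in double mutants (upper panel) and Dicer dMT/dMT (lower panel), with squares for members, triangles for copies or exon-overlapping genes and circles for others. In double mutants 19 of 21 genes up to the end of Sp100 were called higher, and of 9 genes beyond it Gpr55 was.

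Genes of related function were described by lists. Their counts are to be read against all genes tested, of which edgeR called 12.3% higher and 8.84% lower in double mutants, 7.07% and 3.64% in RNAi mutants and 8.06% and 7.3% in Dicer dMT/dMT. The list of nuclear body genes had 1 gene called higher and 6 lower out of 24 in double mutants, with a median log2 fold change of -0.14 (all genes -0.00). Hipk2, a kinase of these bodies, rose by 0.62 ± 0.18. Ubn1 (-0.66 ± 0.14) and Hira (-0.63 ± 0.20), subunits of the HIRA histone chaperone complex, fell. The other 4 that fell, named after their values were seen, are Cabin1 (-0.49) and Ubn2 (-0.44), which belong to the same complex, Morc3 (-0.48) and the SUMO protease Senp6 (-0.40). Pml, the scaffold of the bodies, was at -0.48 (adjusted p = 0.071) and Daxx, a partner of ATRX there, at 0.40 (adjusted p = 0.167, edgeR), neither called. In RNAi mutants 0 were higher and 1 lower, Ubn1 (-0.59 ± 0.17), and in Dicer dMT/dMT 1 was higher and 5 lower.

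Other genes share the domains of speckled proteins. Of the 4 SAND genes Aire, Deaf1, Gmeb1 and Gmeb2, edgeR called 0 in double mutants (median log2 fold change 0.28), RNAi mutants or Dicer dMT/dMT. At an unadjusted p under 0.05 there was 1 higher in double mutants, 0 in RNAi mutants and 1 lower in Dicer dMT/dMT, and DESeq2 called 1 lower in Dicer dMT/dMT and 0 in the others. In either direction, that unadjusted limit was met by 6902 of 20989 genes in double mutants and 4951 in RNAi mutants. In Dicer dMT/dMT it was met by 6828 of 23151 genes. Of 13 genes with a PHD finger next to a bromodomain or related readers, 2 were higher and 0 lower in double mutants, where 21.2% of all genes were called in either direction. These were Trim66 (1.16 ± 0.29) and Zmynd8 (0.72 ± 0.14), both chromatin readers. In RNAi mutants only Zmynd8 of them was called (0.73 ± 0.17), and in Dicer dMT/dMT 1 was higher and 2 lower.

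Interferon genes, the group by which speckled proteins are known to be induced, were called in double mutants at about the share of all genes. Of the 22 in the list 15 passed the filter in the paired-end run, and 2 were higher and 1 lower in double mutants, with a median of 0.08, against 21.2% of all genes called in either direction. Irf3, a transcription factor upstream of interferon, rose by 0.66 ± 0.20, and Ifnar1, a receptor chain, by 0.49 ± 0.12. Ddx58, which encodes the RNA sensor RIG-I, fell from 23.8 to 12.5 CPM (-0.93 ± 0.17). Ddx58 was also lower in RNAi mutants (-1.05 ± 0.22) and in Dicer dMT/dMT (-0.80 ± 0.13), where it was the only list member called. Irf9 (0.62), a transcription factor of the interferon signal, was not called in double mutants.

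**Figure D5:**
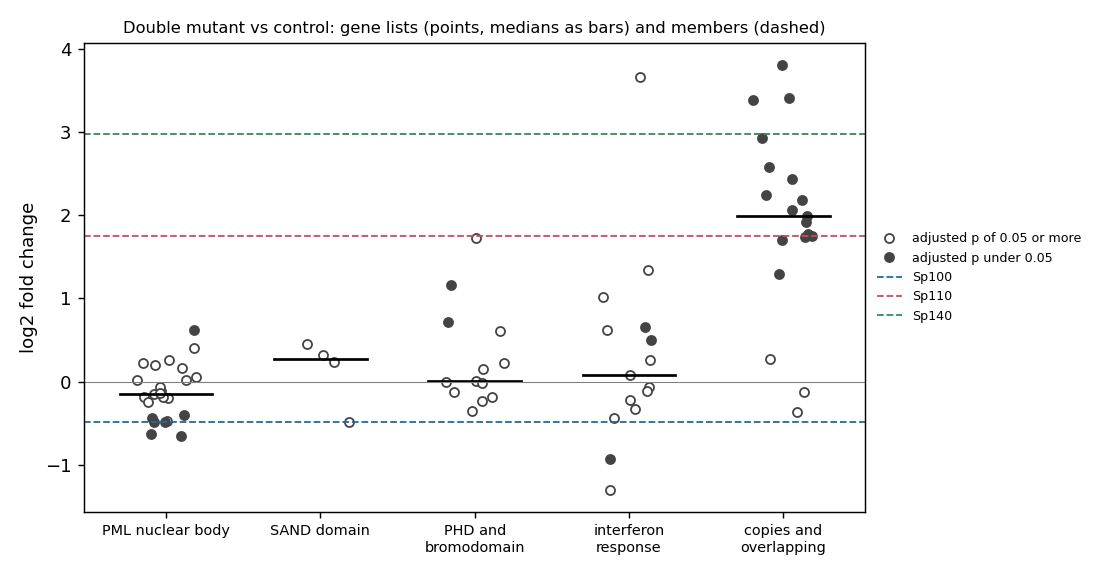
Log2 fold change in double mutants against controls (y axis) of the genes in 5 lists (x axis), with filled points for genes called, bars for list medians and dashed lines for the members. Of the copies and overlapping genes 16 of 19 were called, all higher, with a median of 1.99, and of the nuclear body genes 1 was called higher and 6 lower, with a median of -0.14.

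As a check of the cell type, 12 of 12 oocyte markers were detected in every sample, and their sum was between 13304 and 16733 CPM. Kit (-0.85 ± 0.13) and Mos (-0.60 ± 0.15) fell in double mutants. Granulosa cell markers, which mark the follicle cells around the oocyte, summed to between 107 and 157 CPM in controls, 99.2 and 133 CPM in double mutants and 99.3 and 104 CPM in RNAi mutants. Of the 12, Ptgs2 was higher (1.48 ± 0.46) and Nr5a2 lower (-0.49 ± 0.16) in double mutants. The 14 immune markers, of cells known to express Sp110 and Sp140, summed to between 66.3 and 89.7 CPM in controls, 56.4 and 85.6 CPM in double mutants and 60.4 and 60.6 CPM in RNAi mutants, and these ranges overlap or lie lower in the mutants. Over all samples of both runs Ms4a1 had 27.2 to 66.3 CPM, Cd4 had 9.98 to 28.4 CPM and Cd68 had 1.23 to 32.7 CPM. Cd68, a macrophage marker, rose from a mean of 1.68 CPM in controls to 5.62 CPM in RNAi mutants (1.75 ± 0.25, adjusted p = 0.000427) and to 7.48 CPM in double mutants (2.16 ± 0.22, adjusted p = 1.08e-05, edgeR), the groups in which Sp110 and Sp140 also rose. In the single-end run it had a mean of 2.52 CPM in wild type, 6.08 CPM in Dicer dMT/dMT (not called, adjusted p = 0.128, edgeR) and 16.1 CPM in Dicer SOM/SOM. The immune marker sum of that run was 74.8 to 82.2 CPM in wild type, 66.8 to 78.2 CPM in Dicer dMT/dMT and 57.6 to 75.2 CPM in Dicer SOM/SOM. Ptprc, at 0 in all controls, had a mean of 0.211 CPM in double mutants. Of the 10 immune markers that passed the filter, 2 were called higher in double mutants and 1 in RNAi mutants, with 0 lower in each. Of all genes tested, 12.3% were higher and 8.84% lower in double mutants, and 7.07% and 3.64% in RNAi mutants. With 10 markers, these counts cannot be told from those shares. Lyz2, Cd74, Itgam and Csf1r were not called in either. Their log2 fold changes were -3.86, -2.97, -1.54 and -0.07 in RNAi mutants and 2.02, 2.29, 0.10 and 0.26 in double mutants. The part of these markers in the rise of Sp110 and Sp140 was not tested. Adgre1 was at 0 in 14 of the samples, Cd79b in 13, Ptprc in 12 and Cd79a in 9. Gm42418, which overlaps rRNA, had a mean of 2435 CPM in controls, 4796 CPM in RNAi mutants and 2880 CPM in double mutants and was not called.

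Finally, the genes whose pattern was most like that of each member were sought over the 11 paired-end samples, by the root mean square difference of centred log2 CPM among 14755 genes with a mean of at least 1 CPM. Nearest to Sp140 were A530032D15Rik (0.163), Zfp930 (0.201), a zinc finger gene, and Dlgap1 (0.219). The spread of Sp140 around its own mean was 1.53. Nearest to Sp110 were Exo1 (0.104), an exonuclease of mismatch repair, Samd5 (0.134) and Mrtfb (0.154), against an own spread of 0.901. For Sp100, with an own spread of 0.475, they were Tgfbr1 (0.221), Tub (0.227) and Dnah10 (0.2504). The likeness of A530032D15Rik to Sp140 is between genes that share 12.51% of the 75-base stretches of Sp140, and the other genes named here are not copies of a member by the limits above.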

How the data were processed

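RNA-seq of 22 samples of mouse GV oocytes was analysed. Per the labels and the methods, the authors mapped reads with STAR 2.5.3a to mm10/GRCm38, keeping reads that map to many places, and counted them on GENCODE M15 with featureCounts, unstranded and with fractional assignment. The deposited values are thus estimated counts, which the authors did not normalize. The symbols of 52403 of 52636 gene IDs came from the reference table. Of the columns of per-sample values, 0 were left out for want of a sample.

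Counts were rounded and each run was fitted apart with edgeR 4.0.16 (R 4.3.3): TMM, filterByExpr over groups of at least 2 samples, the quasi-likelihood test with all replicated groups in 1 fit, Benjamini-Hochberg adjustment over all genes and a threshold of 0.05. Depth was 6468380 to 90713013 counts per sample. CPM shown per sample is TMM-normalized, and permutation tests used log2 CPM with a prior count of 2. A test of the members planned for Dicer dMT/dMT is not printed, since its wild-type samples served in choosing them. Calls of their copies there are left out too. Groups of 1 sample were left out of the fits and only described. Each 95% interval comes from the fit. Floors of 3 counts cover counting error only. Copies were found by BLAST among reference transcripts. A test on simulated counts recovered changed genes.

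The members and lists were chosen with earlier results of these data known. Named genes were the members, their neighbours within 500 kb, copies and overlapping genes that pass the filter, up to 2 called rises and 2 called falls per list in double mutants, the 3 genes nearest in pattern to each member, Dicer1 and Gm42418. The alternatives were DESeq2 1.42.0, RLE factors, no filter, only the compared groups, a replicate block, animals under 30 weeks, Gm42418 as covariate, other prior counts, sums over copies, and each sample left out. Reads were not mapped again, and the deposited repeat annotation was not used here.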

Additional observations from a re-analysis of the deposited data

How the results depend on the processing

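The rises of Sp110 and Sp140 in RNAi and double mutants kept their direction and their call in edgeR or DESeq2 under every alternative run. For the sums over copies this says little, since they hold partners that were called higher by themselves. The sum with all copies lowered Sp140 to 1.59 and 1.52 there and to 0.30 in Dicer dMT/dMT. With a replicate block the double mutant value was 1.76 for Sp110 and 2.97 for Sp140. Correlations of same-numbered samples were between -0.07 and 0.18. They do not settle whether the replicate numbers pair the samples. The paper used heterozygous littermates as controls, but the labels do not say which samples are littermates. Over the samples left out in turn, Sp140 ranged from 2.91 to 3.09 and Sp110 from 1.70 to 1.81 in double mutants (log2).

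Sp100 was sensitive, with few counts behind it. Summed with its copies it turned to 0.018 and 0.26 in single-end Dicer SOM/SOM against wild type and Dicer dMT/dMT, to 0.76 in RNAi mutants, to 0.88 in double mutants and to -0.041 in the comparison of ages. The replicate block turned it to 0.14 in RNAi mutants and to -0.34 in double against RNAi mutants, and the restriction to animals under 30 weeks turned the latter to -0.40. In single-end Dicer SOM/SOM, the sum over copies moved Sp110 to 2.73 against wild type and 1.42 against Dicer dMT/dMT, and Sp140 to 1.42 and 1.12. Without Arhgef12, an alternative chosen after seeing the data, the sum of Sp140 was 2.89 against wild type. In double against RNAi mutants, Sp140 turned to -0.072 in the sum, -0.075 in the sum without Arhgef12, -0.00149 with the block and -0.040 with Gm42418 as covariate, and in the comparison of ages the sum without Arhgef12 gave 0.062.

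When samples were left out, double against RNAi mutants ranged from -0.15 to 0.32 for Sp100, from -0.10 to 0.013 for Sp110 and from -0.035 to 0.12 for Sp140, and the comparison of ages of Sp140 from -0.30 to 0.19. The cause of these changes was not tested. In Dicer dMT/dMT the difference in log2 CPM ranged from 1.17 to 1.26 for Sp110 and from 0.92 to 1.03 for Sp140, given with no test. For Sp100 the pooled difference ranged from -0.69 to -0.45, with exact permutation p from 0.0286 to 0.138.

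Counts of called genes in the lists moved in few cases. The shares of all genes called by DESeq2 or without a filter are not given here. The counts below therefore describe the lists only. With DESeq2, the nuclear body list had 3 lower in RNAi mutants and 3 higher in Dicer dMT/dMT. In the latter it also gave 2 higher for the PHD and bromodomain list, 2 higher for interferon, 2 lower each for granulosa and immune markers and 1 lower for SAND. Without a filter on low counts, the PHD and bromodomain list had 4 higher in double mutants, and in Dicer dMT/dMT 3 nuclear body genes, 0 PHD and bromodomain genes and 1 oocyte marker were lower.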
